A study of Mus musculus with 28 samples.

Results

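The genes of the cytosolic ribosomal proteins were placed against lists of H3K9me2 domains from mouse embryonic stem cells (mESCs) and 2-cell-like cells (2CLCs). Members were all autosomal genes annotated as protein-coding on mm10 (GENCODE M21) whose symbol starts with Rpl or Rps and a digit, without Rpl10l and the Rps6k kinases, which gave 83 of 20807 autosomal protein-coding genes. Of these, 50 carried a large subunit (Rpl) and 33 a small subunit (Rps) symbol, and they lay on all 19 autosomes. The rule took in more than the structural genes of the ribosome. Of the 83, 70 were core genes, 7 were paralogs or other genes with a similar symbol (Rpl3l, Rpl7l1, Rpl22l1, Rpl39l, Rps27l, Rps27rt and Rps19bp1), and 6 had a symbol that ends in -ps and a number, as pseudogenes do, although the annotation calls them protein-coding (Rpl9-ps1, Rpl9-ps6, Rpl10-ps3, Rpl36-ps4, Rpl36a-ps1 and Rps12-ps3). Of the latter 6, 5 had a single exon in every annotated transcript, against 0 of the 70 core genes. Rps19bp1 encodes a protein that binds a ribosomal protein and is no ribosomal protein itself. The rule used symbols and annotation only, and no measured value.

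Each cytosolic ribosome is built from ribosomal RNA and a fixed set of ribosomal proteins, one copy of nearly every protein per ribosome, so their genes are expressed in all dividing cells and at high levels in mESCs. Their abundant mRNAs have been copied back into the genome many times, which has left processed pseudogenes and a few functional retrogenes. H3K9me2 is a histone mark of repressed chromatin that covers broad domains of the genome and is deposited by the EHMT1 and EHMT2 methyltransferases.

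The cells were KH2 mESCs, an F1 line of C57BL/6J and 129S1 background, in which both alleles of Ehmt2 encode EHMT2 fused to a degron tag (dTAG), 2xHA and, after a P2A peptide, mCherry. The compound dTAG-13 degrades the tagged EHMT2, and DMSO is its solvent control. All groups carried this allele, the DMSO groups included. For the sorted groups, 1 clone that also carried MERVL-GFP, a reporter of the 2-cell-like state, was kept in DMSO or dTAG-13 for 72 h and separated into GFP-negative mESCs and GFP-positive 2CLCs, and each of these 4 conditions had 3 immunoprecipitated and 3 input libraries. According to the labels, the retinoid TTNBP was given for 2 of the replicates, without naming them, whereas the study's methods give no such limit. Bulk mESCs after 24 h in DMSO had 2 libraries of each kind, so that the series held 28 libraries. The cultures were grown on feeder cells. The data used here hold no expression or protein values, so neither the sorted cell states nor the loss of EHMT2 protein could be checked here. The study itself measured EHMT2 protein by Western blot and flow cytometry, and the purity of the populations sorted for RNA-seq.

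The values compared here are positions. Each of the 4 sorted conditions had a single list of domains, with a score of 0 for every domain, and the remaining list named neither a cell state nor a treatment and is called the unnamed list. A list has no replicates, so no comparison below has a test or a standard error, and a difference between lists compares those lists. The edges of domains stood on a 5 kb grid and came from 10 kb windows, so a distance below 5 kb from an edge is under the resolution of the calls. On the autosomes the mESC lists held 3870 domains with a median width of 145 kb for DMSO and 6770 of 60 kb for dTAG, the 2CLC lists 3870 of 120 kb and 8281 of 55 kb, and the unnamed list 6115 of 150 kb. Domains were called from percentiles of the signal, and whether these were set for each list on its own is not given in the sources used here. Entering a domain is therefore given as a change of position relative to the called regions and is not read as a level of H3K9me2. In the study, EHMT2 depletion lowered the global level of H3K9me2 in both mESCs and 2CLCs.

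Promoters are shown for the entering members that the RefSeq table (GRCm38.p6, the same assembly as mm10) holds, because the gene start decides whether a member counts as inside. Each is given 5′ to 3′ on the strand of the gene, from 180 bases before the RefSeq start to 20 bases from it, so that base 181 is the start. Capitals mark matches, on either strand, to CCGGAA, the core of ETS family sites, to TATAAA, the TATA box, or to AAGATGGCG, a YY1 site. The Rpl24 promoter is at chr16:55966095-55966294, plus strand, Rpl15 at chr14:18270967-18271166, minus strand, Rpl37 at chr15:5116433-5116632, plus strand, Rps23 at chr13:90922942-90923141, plus strand, Rpl22l1 at chr3:28805328-28805527, plus strand and Rps27rt at chr9:114982720-114982919, minus strand.
Rpl24: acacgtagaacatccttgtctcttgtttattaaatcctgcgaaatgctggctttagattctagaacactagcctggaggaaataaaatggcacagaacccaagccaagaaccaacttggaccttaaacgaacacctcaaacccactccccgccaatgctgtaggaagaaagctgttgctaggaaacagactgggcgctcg
Rpl15: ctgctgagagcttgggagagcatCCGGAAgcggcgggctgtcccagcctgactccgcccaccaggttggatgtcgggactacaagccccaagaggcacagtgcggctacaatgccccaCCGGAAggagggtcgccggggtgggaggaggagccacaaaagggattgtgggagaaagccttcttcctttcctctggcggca
Rpl37: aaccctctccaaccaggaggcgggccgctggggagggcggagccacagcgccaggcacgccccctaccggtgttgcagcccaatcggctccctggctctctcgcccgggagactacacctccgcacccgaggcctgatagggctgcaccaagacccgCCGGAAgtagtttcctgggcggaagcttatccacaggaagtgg
Rps23: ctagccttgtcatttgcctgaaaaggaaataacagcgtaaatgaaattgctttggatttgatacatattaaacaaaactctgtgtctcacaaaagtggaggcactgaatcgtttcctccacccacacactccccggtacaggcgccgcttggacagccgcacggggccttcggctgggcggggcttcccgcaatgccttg
Rpl22l1: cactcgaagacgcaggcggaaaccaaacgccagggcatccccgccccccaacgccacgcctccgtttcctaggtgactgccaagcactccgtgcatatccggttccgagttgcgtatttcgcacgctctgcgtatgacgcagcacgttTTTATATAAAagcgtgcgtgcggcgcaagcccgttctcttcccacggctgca
Rps27rt: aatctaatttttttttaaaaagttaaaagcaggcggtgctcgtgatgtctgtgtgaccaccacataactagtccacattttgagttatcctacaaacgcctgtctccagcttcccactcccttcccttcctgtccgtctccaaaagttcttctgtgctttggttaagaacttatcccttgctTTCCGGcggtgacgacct
Rpl15, Rpl37 and Rps27rt held CCGGAA in the printed stretch, whereas Rpl24 and Rps23 held none of the 3 motifs there. In Rpl22l1 the TATA box and its reverse complement overlapped. The RefSeq start was at the GENCODE start for Rpl24 and Rps27rt, 72 bases downstream of it for Rpl22l1, 164 for Rps23 and 405 for Rpl15, and 32 bases upstream for Rpl37 (written as -32), all far less than the 5 kb grid.

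The table held a promoter for 58 of the 83 members, from 250 bases before to 50 after the start. For each member only the entry nearest to the GENCODE start was used. The autosomal promoters set against them are all entries, so a gene with several starts counts with each of them. CCGGAA was found on either strand in 29 of them (50%), against 15.1% of the 31396 autosomal promoters of the table. AAGATGGCG was found in 4 (6.90%), against 1.39%, and TATAAA in 3 (5.17%), against 13.6%. The palindromic NRF-1 motif was found in 1 (1.72%), against 0.968%. A start at C followed by at least 4 bases of C or T, the mark of the terminal oligopyrimidine (TOP) mRNAs to which ribosomal protein mRNAs belong, was found in 12 (20.7%), against 2.54%. It was looked for at the exact RefSeq start only. A start annotated a few bases off can miss it, so 20.7% is not the share of TOP mRNAs. Of the 6 entering members in the table, 3 held CCGGAA, 1 TATAAA, 0 AAGATGGCG and 2 the C and pyrimidine start. These are matches of letters in a window and say nothing on which factor binds there.

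In DMSO the ribosomal protein genes lay almost entirely outside H3K9me2 domains. Only 2 of the 83 starts (2.41%) were inside in mESC DMSO, and the same 2 genes were inside in 2CLC DMSO (2.41%), where 21.4% and 22.1% of all autosomal protein-coding starts were inside. These 2 were Rpl39l and Rpl36a-ps1, and 0 of the 70 core genes were inside in either DMSO list. After dTAG, 8 of the 83 starts (9.64%) were inside in mESCs and 9 (10.8%) in 2CLCs, against 22.8% and 25.5% of all. In the unnamed list 8 (9.64%) were inside, against 29.8%. The members were thus inside domains less often than protein-coding genes in general in each of the 5 lists, and no replicate is at hand to put an error on these shares. In no list did the body of a member reach into a domain that did not also hold its start. The counts for bodies were thus the same as for starts. Of all autosomal protein-coding genes, 26.8%, 30%, 27.1%, 34.2% and 37.0% had a body that touched a domain in the same order of lists. A longer body reaches a domain more readily, many members were shorter than the 5 kb grid, and gene length was not matched here.

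**Figure D1:**
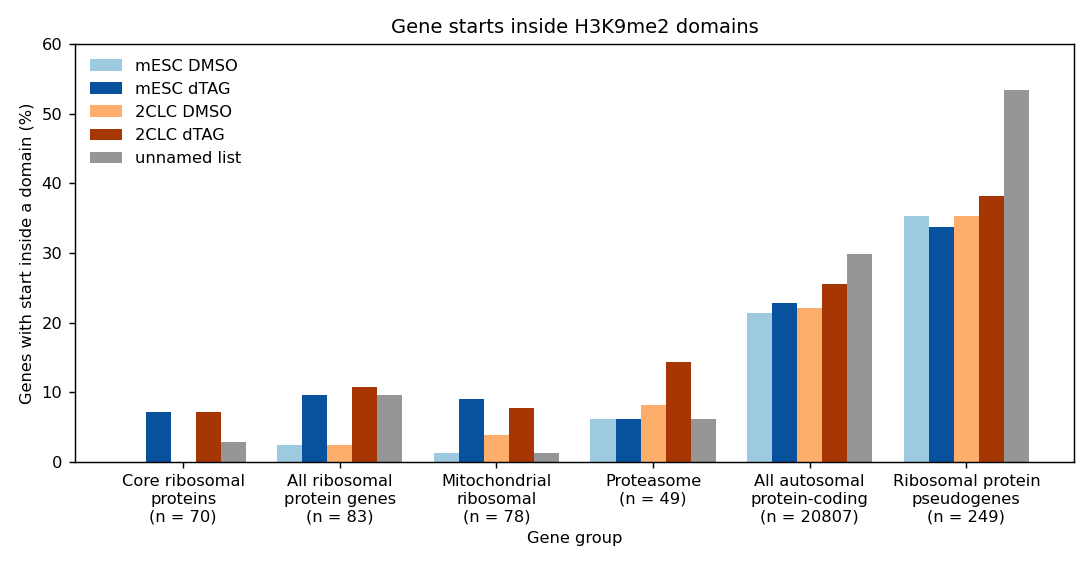
Share of genes whose start lay inside an H3K9me2 domain (percent, bars from 0) for 6 groups of genes in the 5 domain lists, each a single list without replicates. The core ribosomal protein genes were at 0.0% in both DMSO lists and 7.14% in both dTAG lists, below all autosomal protein-coding genes, and the ribosomal protein pseudogenes stood above them at 33.7% to 53.4%.

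Among genes of other protein complexes, the shares were also low. Of 78 mitochondrial ribosomal protein genes, which build the separate ribosome of mitochondria, 1 start was inside with DMSO and 7 with dTAG in mESCs, 3 and 6 in 2CLCs, and 1 in the unnamed list. Of 49 proteasome genes, 3, 3, 4, 7 and 3 were inside in the same order. Annotated pseudogenes named after ribosomal proteins were different. Of 249 such autosomal loci, 88 (35.3%) were inside with DMSO and 84 (33.7%) with dTAG in mESCs, 88 (35.3%) and 95 (38.2%) in 2CLCs, and 133 (53.4%) in the unnamed list, each above the share of all protein-coding genes.

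The other genes of the ribosome and its pathway followed the core genes. The 7 remaining autosomal ribosome components, Rplp0, Rplp1 and Rplp2 of the stalk, Rpsa, Fau and Rack1 among them, had 0 starts inside in every list, and so had the 4 ribosomal protein genes on chromosome X (Rps4x, Rpl10, Rpl36a and Rpl39). Of 33 translation factor genes, 1 was inside in mESC DMSO (Eif3f) and 0 in 2CLC DMSO, and Eif1a and Eif3e were the 2 inside in both dTAG lists. Of 33 ribosome biogenesis genes, 0 were inside in mESC DMSO and 1 in 2CLC DMSO (Ltv1), and Pes1, Rrn3 and Ltv1 were the 3 inside in both dTAG lists. In the unnamed list Eif3f and Ltv1 were the only genes of these groups inside. Pes1 acts in the maturation of the large subunit, Rrn3 in transcription by RNA polymerase I and Ltv1 in the export of the small subunit.

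The member starts lay far from the nearest domain edge in DMSO and nearer after dTAG. Taken over all 83 members, with a start inside counted as a negative distance, the median in mESCs was 383 kb with DMSO (95% order-statistic interval over the genes 263 to 617 kb) and 199 kb with dTAG (89.6 to 289). In 2CLCs it was 435 kb (312 to 658) and 130 kb (61 to 183), and 227 kb in the unnamed list (112 to 385). The interval is that of the median, with the genes of a list taken as independent, and gives no error between experiments. Nor is it the range of the genes, which in mESC DMSO ran from 46.7 kb inside to 4470 kb outside. For all autosomal protein-coding genes the medians were 188, 83.3, 191, 53.6 and 71 kb in the same order, below those of the members in each list. These medians also carry the larger share of all genes that lay inside, so they do not compare the genes outside alone. Beyond 1000 kb from any edge were 23 members in mESC DMSO and 4 in mESC dTAG, and 26 in 2CLC DMSO and 0 in 2CLC dTAG. As shares of the members these were 27.7%, 4.82%, 31.3% and 0.0%, against 15.2%, 3.03%, 16.5% and 0.894% of all autosomal protein-coding genes, which thus fell after dTAG as well. Of the 81 members outside in DMSO, the nearest edge was closer after dTAG for 63 in mESCs, farther for 14 and equally far for 4, and in 2CLCs closer for 65, farther for 10 and equally far for 6. The nearest edge was closer for 77.8% of the members against 71.6% of all autosomal protein-coding genes in mESCs, and for 80.2% against 79.8% in 2CLCs, so this shift was close to that of genes in general.

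**Figure D2:**
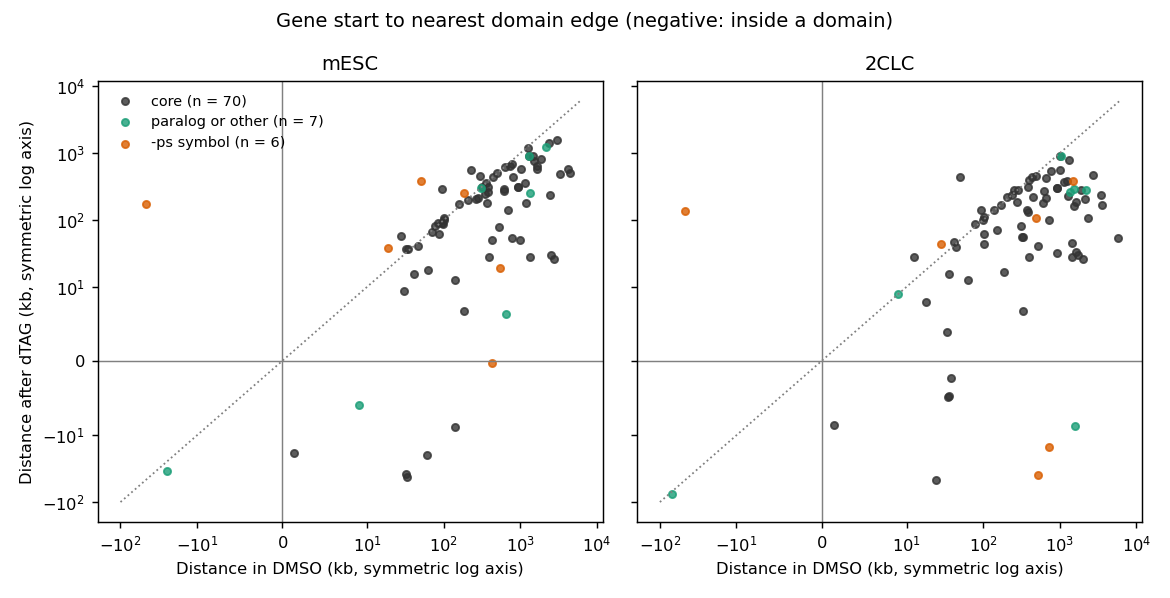
Distance from the start of each of the 83 members to the nearest domain edge in DMSO (x axis) and after dTAG (y axis), in kb on symmetric log axes that are linear within 10 kb, with negative values inside a domain and a dotted line of equal distance. Most points lie below the dotted line, and the points right of and below the zero lines are the 7 members in mESCs and 8 in 2CLCs that entered domains.

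Of the 81 members outside domains in DMSO, 7 (8.64%) were inside after dTAG in mESCs and 8 (9.88%) in 2CLCs. The same share of all autosomal protein-coding genes outside in DMSO was 7.92% in mESCs and 9.6% in 2CLCs. The members entered at about the background rate in both cell states, so that their number is no result about ribosomal protein genes. In mESCs the 7 were Rps20, Rps27a, Rpl15, Rpl24, Rpl37, Rpl22l1 and Rpl9-ps6. In 2CLCs they included Rps20, Rps23, Rpl15, Rpl24, Rps27rt, Rpl9-ps6 and Rpl36-ps4. Rps20, Rpl15, Rpl24 and Rpl9-ps6 entered in both, which is 57.1% of the members that entered in mESCs and 50% of those in 2CLCs, and for all protein-coding genes the 579 shared were 44.7% and 37.2%. The shares of the members rest on 4 genes. Only Rps20 of these entered in both cell states also with domains widened and with domains trimmed by 5 kb. Of the core genes, 5 of 70 (7.14%) entered in each cell state, and 7 entered in at least 1, which were 3 of 41 large subunit and 4 of 29 small subunit genes. The remaining 63 core genes were outside in all 4 sorted lists. Of all 20807 autosomal protein-coding genes, 2273 entered in at least 1 cell state and 13953 were outside in all 4 sorted lists. In the other direction, 1 of the 2 members inside in DMSO, Rpl36a-ps1, was outside after dTAG in both cell states, where 22.7% of all protein-coding starts inside in DMSO left in mESCs and 18.4% in 2CLCs.

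**Figure D3:**
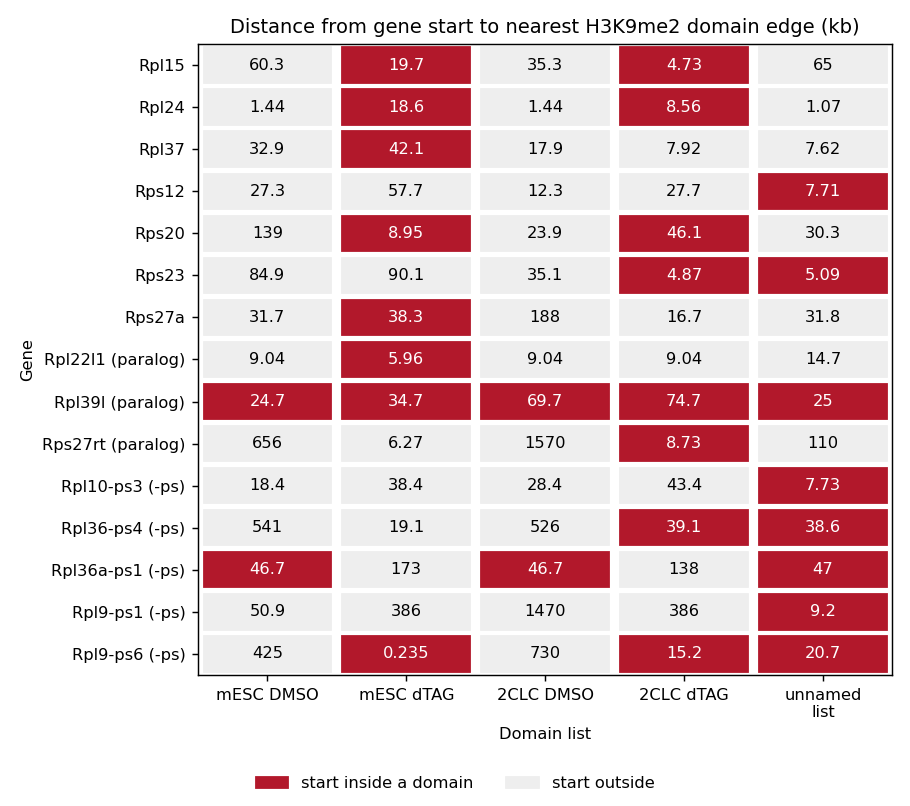
Members with a start inside a domain of at least 1 of the 5 lists (rows, 15 of 16) against the lists (columns), with the distance from the start to the nearest domain edge in kb printed in each cell. Red cells are starts inside and grey cells starts outside, and the core genes have red cells only after dTAG or in the unnamed list.

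Rpl24, a large subunit protein at the interface with the small subunit, was nearest to a domain among the members outside in DMSO. Its gene (ENSMUSG00000098274.7, chr16:55966275-55971435, plus strand) started 1.44 kb outside a domain in mESC DMSO and in 2CLC DMSO, and 1.07 kb outside in the unnamed list. It was 18.6 kb inside in mESC dTAG and 8.56 kb inside in 2CLC dTAG, with its whole body covered in both. The DMSO domain lay upstream of the start and reached from -16.4 to -1.44 kb, and the dTAG domains, 50 kb wide in mESCs (chr16:55934839-55984838) and 30 kb in 2CLCs (chr16:55944839-55974838), extended across the gene. Each of the latter also held the start of Zbtb11, and that in mESCs the start of Cep97. Its DMSO distance is under the grid of the calls, and with every domain widened by 5 kb Rpl24 was inside in DMSO and no longer entered.

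Rpl15, a large subunit protein whose loss in humans causes Diamond-Blackfan anemia, is encoded at chr14:18267823-18271391 on the minus strand (ENSMUSG00000012405.16). Its start was 60.3 kb outside in mESC DMSO, 35.3 kb outside in 2CLC DMSO and 65.0 kb outside in the unnamed list. In mESC dTAG it was 19.7 kb inside a domain of 310 kb (chr14:17981124-18291122), of which 74.2% was covered by DMSO domains. In 2CLC dTAG it was 4.73 kb inside a domain of 55.0 kb (chr14:18221123-18276122), of which 27.3% was covered in DMSO. Both domains also held the starts of Nr1d2, a nuclear receptor of the circadian clock, and Nkiras1. The position in 2CLCs was within the grid and was lost when domains were trimmed by 5 kb, whereas that in mESCs was kept.

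Rps20, a small subunit protein of the head of the subunit, is encoded at chr4:3831334-3835665 on the minus strand (ENSMUSG00000028234.6). Its start was 139 kb outside in mESC DMSO, 23.9 kb outside in 2CLC DMSO and 30.3 kb outside in the unnamed list. In mESC dTAG it was 8.95 kb inside a domain of 50 kb (chr4:3794614-3844612) that overlapped no DMSO domain and held no other protein-coding start. In 2CLC dTAG it was 46.1 kb inside a domain of 125 kb (chr4:3789614-3914612), of which 44.0% was covered in DMSO and which also held the start of Mos, a kinase of oocyte maturation. Rps20 was the only member that entered in both cell states with domains as deposited, widened by 5 kb and trimmed by 5 kb.

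The other 2 core genes that entered in mESCs were Rpl37 and Rps27a, and neither entered in 2CLCs. Rpl37, a zinc-binding large subunit protein (ENSMUSG00000041841.8, chr15:5116645-5119140, plus strand), started 32.9 kb outside in mESC DMSO and 42.1 kb inside in mESC dTAG. In 2CLCs it was outside in both lists, by 17.9 kb in DMSO and 7.92 kb after dTAG, and in the unnamed list by 7.62 kb. Its mESC dTAG domain was 145 kb wide (chr15:5013730-5158729), 48.3% of it was covered in DMSO, and it held the starts of Prkaa1, the catalytic subunit of the AMP-activated kinase, C7 and Card6. Rps27a, which is made as a fusion of ubiquitin and a small subunit protein (ENSMUSG00000020460.15, chr11:29545846-29548109, minus strand), started 31.7 kb outside in mESC DMSO and 38.3 kb inside in mESC dTAG. In 2CLCs it was outside by 188 kb with DMSO and 16.7 kb with dTAG, and in the unnamed list by 31.8 kb. Its mESC dTAG domain of 95 kb (chr11:29509795-29604794) was covered to 26.3% in DMSO and held the starts of Prorsd1, Mtif2 and Clhc1.

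Rps23 entered in 2CLCs and not in mESCs. This small subunit protein of the decoding centre (ENSMUSG00000049517.8, chr13:90922958-90924950, plus strand) was outside in mESCs by 84.9 kb with DMSO and 90.1 kb with dTAG, and in 2CLC DMSO by 35.1 kb. It was 4.87 kb inside in 2CLC dTAG, in a domain of 165 kb (chr13:90762826-90927825) covered to 75.8% in DMSO, and 5.09 kb inside in the unnamed list, and Atp6ap1l had its start in both domains. Its position in 2CLC dTAG was within the grid and was lost when domains were trimmed by 5 kb. Rps12, a small subunit protein (ENSMUSG00000061983.7), was inside in the unnamed list alone, by 7.71 kb.

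**Figure D4:**
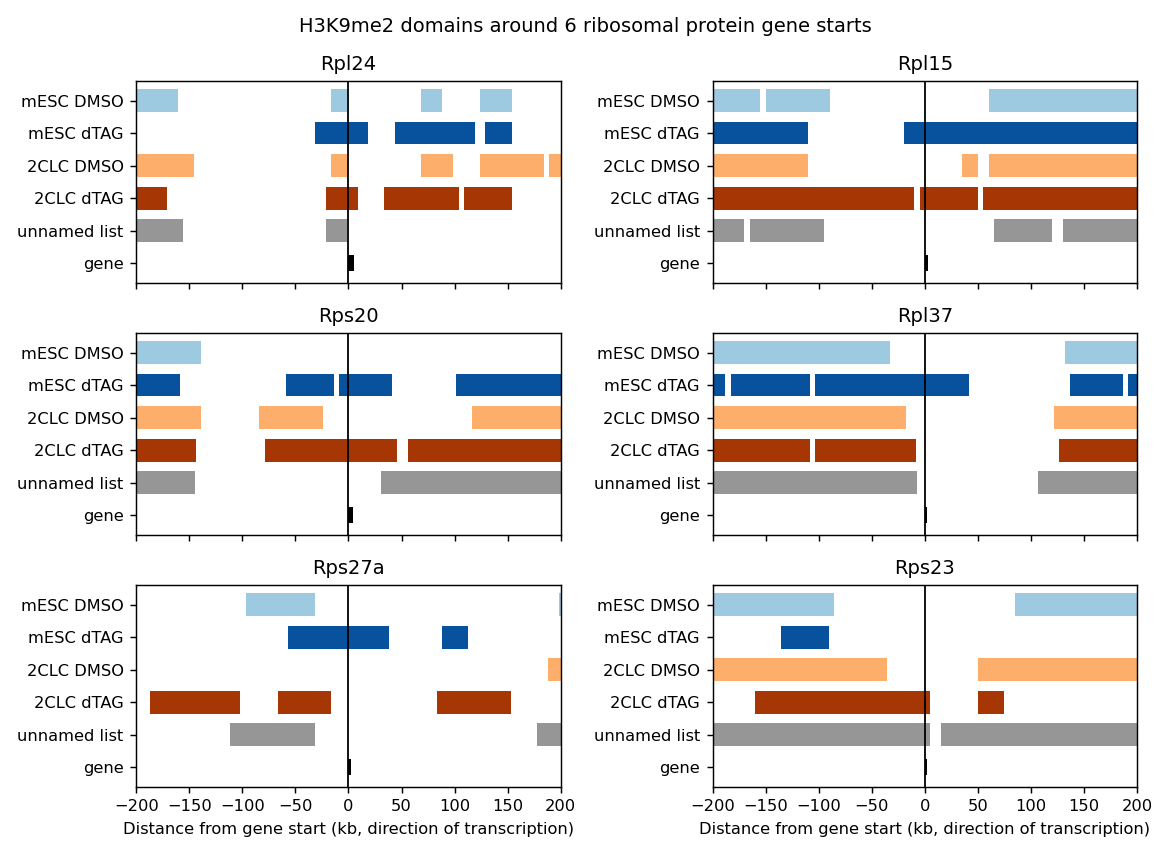
H3K9me2 domains (bars) of the 5 lists within 200 kb of the starts of Rpl24, Rpl15, Rps20, Rpl37, Rps27a and Rps23, as distance from the start in kb in the direction of transcription, with the gene body in black and the start as a vertical line. The dTAG domains reach across the starts of Rpl24, Rpl15 and Rps20 in both cell states, of Rpl37 and Rps27a in mESCs and of Rps23 in 2CLCs.

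The domains that members entered mostly overlapped domains called in DMSO. Of the 7 members that entered in mESCs, 2 (28.6%) were in a dTAG domain that shared no base with a DMSO domain of the same cell state, as were 3 of the 8 (37.5%) in 2CLCs. For all autosomal protein-coding genes that entered, these shares were 57.1% and 66.3%. With 7 and 8 members, single genes move the shares of the members widely. The median width of the domain entered was 95 kb for members and 70.0 kb for all in mESCs, and 72.5 and 65.0 kb in 2CLCs. Members near a DMSO domain entered at a higher share than the 8.64% and 9.88% of all members outside. Of the 11 members outside by at most 50 kb in mESC DMSO, 4 (36.4%) entered, and of the 14 in 2CLC DMSO, 5 (35.7%), where the shares for all protein-coding genes were 22.5% and 24.0%.

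The paralogs differed among themselves. Rpl39l, the testis-enriched paralog of Rpl39, which lines the exit tunnel of the large subunit (ENSMUSG00000039209.12, chr16:10170226-10174911, plus strand), was the only member inside in all 5 lists. Its start was inside by 24.7 kb with DMSO and 34.7 kb with dTAG in mESCs, by 69.7 and 74.7 kb in 2CLCs and by 25 kb in the unnamed list, in domains of 100 to 155 kb that it shared with the start of Atf7ip2. Its parent Rpl39 on chromosome X was outside by 161, 186, 286, 95.9 and 34.2 kb in the same order. Rpl22l1, the paralog of Rpl22 (ENSMUSG00000039221.10, chr3:28805436-28807424, plus strand), was 9.04 kb outside in mESC DMSO, 2CLC DMSO and 2CLC dTAG, 14.7 kb outside in the unnamed list and 5.96 kb inside in mESC dTAG. Its mESC dTAG domain of 100 kb was covered to 85.0% in DMSO, and Rpl22 itself was outside by 4470 kb in mESC DMSO and 499 kb in mESC dTAG. Rps27rt, a retrotransposed copy of Rps27 (ENSMUSG00000050621.7, chr9:114982366-114982739, minus strand), was outside in mESCs by 656 kb with DMSO and 6.27 kb with dTAG, in 2CLC DMSO by 1570 kb and in the unnamed list by 110 kb. It was 8.73 kb inside in 2CLC dTAG, in a domain of 30 kb that overlapped no DMSO domain and held the start of Osbpl10.

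The paralogs Rpl3l, Rpl7l1 and Rps27l and the gene Rps19bp1 were outside in every list. Rpl3l, the paralog of Rpl3 in heart and skeletal muscle, was the member whose smallest distance over the 4 sorted lists was greatest, at 901 kb, followed by its neighbor Rps2, whose start is 9.70 kb away, at 891 kb. Rpl7l1 was outside by 249 to 1370 kb, Rps27l by 112 to 1550 kb and Rps19bp1 by 281 to 2180 kb over the 5 lists. Rpl36al, a paralog of Rpl36a that is counted here among the core genes, was outside by 56.9 to 112 kb.

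Of the 6 members with -ps symbols, 5 were inside in the unnamed list, and 1 or 2 in each sorted list. Rpl36a-ps1 (chr14:98993870-98994318) was 46.7 kb inside in both DMSO lists, 47.0 kb inside in the unnamed list, and outside by 173 kb in mESC dTAG and 138 kb in 2CLC dTAG. Rpl9-ps6 (chr19:32465865-32466578) was outside by 425 kb in mESC DMSO and 730 kb in 2CLC DMSO, and inside by 0.235 kb in mESC dTAG, 15.2 kb in 2CLC dTAG and 20.7 kb in the unnamed list. Its position in mESC dTAG was within the grid and was lost when domains were trimmed by 5 kb. Rpl36-ps4 was outside in mESCs by 541 kb with DMSO and 19.1 kb with dTAG, and in 2CLC DMSO by 526 kb, and inside by 39.1 kb in 2CLC dTAG and 38.6 kb in the unnamed list. The dTAG domains around Rpl9-ps6 and Rpl36-ps4 overlapped no DMSO domain and held no other protein-coding start. Rpl10-ps3 and Rpl9-ps1 were inside in the unnamed list alone, by 7.73 and 9.20 kb, and Rps12-ps3 was outside in all lists, by 30 kb in the unnamed list and 106 kb or more in the others. Thus Rpl39l and -ps genes made up all members inside in DMSO, and 6 of the 8 inside in the unnamed list.

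Several members stood close to a domain without being in it. Outside by at most 50 kb were 19.3% of the members in mESC dTAG and 24.1% in 2CLC dTAG. For all autosomal protein-coding genes these shares were 19.0% and 23.4%, so the members were close to genes in general. In mESC dTAG the members outside and nearest to an edge included Rps27rt at 6.27 kb, Rps3a1 at 6.70 kb, Rpl7 at 9.47 kb and Rps9 at 15.7 kb. In 2CLC dTAG they were Rpl34 at 3.94 kb, Rps3a1 at 6.70 kb, Rpl37 at 7.92 kb, Rpl22l1 at 9.04 kb and Rpl7a at 12.8 kb. At the other end, Rpl23a was 1550 kb, Rpl3 1400 kb, Rps19bp1 1230 kb, Rpl26 1210 kb and Rpl18 901 kb from the nearest edge in mESC dTAG. In 2CLC dTAG the farthest were Rpl3l at 901 kb, Rps2 at 891 kb, Rpl23a at 801 kb, Rpl10a at 554 kb and Rps15 at 543 kb. Rpl23a was thus among the 5 farthest members in both dTAG lists. Members are scattered over the genome, with 4 pairs of starts within 100 kb of each other, among them Rpl41 and Rps26, Rps29 and Rpl36al, and Rps2 and Rpl3l. No such pair was among the members that entered. The domains entered can be wider than 100 kb, and by their positions none held more than 1 member.

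The surroundings of the entering members differed from those of the other members in base composition. In the 100 kb around the start, the 11 members that entered in at least 1 cell state had a median G+C content of 43.3% (39.6% to 47.8%), and the 70 members outside in all 4 sorted lists one of 47.4% (42% to 54.5%), so the ranges overlapped. Repeat-masked bases made up a median of 36% (31.7% to 42.7%) around entering members and 30.8% (17.7% to 42.7%) around the others. All autosomal protein-coding genes showed the same order, with medians of 42.9% G+C and 34.1% repeats for the 2273 that entered, 46.4% and 27.8% for the 13953 outside in all 4 sorted lists, and 40.1% and 41.1% for the 5216 inside in at least 1 DMSO list. The part of base composition and repeats in the domain calls was not tested.

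**Figure D5:**
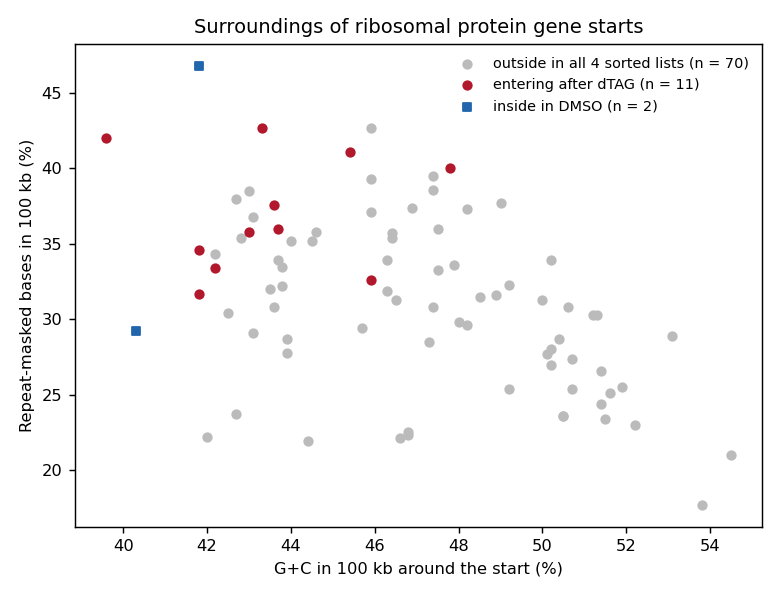
G+C content (x axis, percent) and repeat-masked bases (y axis, percent) in the 100 kb around the start of each of the 83 members, with members that entered a domain after dTAG in red, those inside in DMSO as blue squares and those outside in all 4 sorted lists in grey. The red points lie between 39.6% and 47.8% G+C and at 31.7% repeats or more, and grey points are found among them.

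Ribosomal protein genes hold much sequence that occurs elsewhere in the genome. Of the 32-base words in their exons, a median of 23.8% (0.0% to 100%) occurred more than once in the assembled chromosomes, against 3.91% for the 78 mitochondrial ribosomal protein genes. In the 10 kb window around the start, which is the width of a window of the domain calls, the medians were 10.9% (2.07% to 30.6%) and 6.62%. For the entering members the window held a median of 10.5% (6.69% to 27.3%) and for the 70 members outside in all 4 sorted lists 11.1% (2.07% to 30.6%). Among the entering members, Rpl24 had the highest share of the window, 27.3%, with 53.8% of its exons, and the copies Rpl9-ps6 and Rps27rt had the highest shares of exons, 95.3% and 93.3%. Reads with several matches were assigned by the aligner, and the part of repeated sequence in these calls was not tested.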

How the data were processed

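H3K9me2 was profiled by ULI-NChIP with antibody ab1220 in 28 libraries. Per the study's methods and processing notes, the authors aligned reads to mm10 with STAR 2.7.10 in a multi-mapper-aware mode, removed duplicates (Picard 2.26.0) and reads in high-signal regions (SAMtools 1.14), converted alignments with bedtools 2.30.0, computed coverage with deepTools 3.5.1, took the log2 ratio of immunoprecipitation to input in 10 kb windows every 5 kb, and extended regions of high ratio to both sides until a region of low ratio, each set by a percentile (R 4.1.2). Whether replicates were pooled, or percentiles set per list, is not given in the sources used here. The deposited lists hold chromosome, start and end in base pairs and no other measurement, so depth is unknown here.

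Gene starts (the 5′ end of the GENCODE M21 gene) and bodies were placed against each list with Python 3.11.15 and numpy 2.4.6. A member entered where its start was outside in DMSO and inside after dTAG of the same cell state. No test was used, as each condition has 1 list. Placement was tested on simulated domains. Words of 32 bases were counted on both strands over all assembled chromosomes. Named are members inside any domain, those that entered or left, the 5 nearest and 5 farthest in each dTAG list, and all paralogs, apart from a few genes that are not reported here. The members and lists were chosen with earlier results of these data known. Alternatives were the minimum width, edges moved by 5 kb, joined domains, the principal transcript and other member lists.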

Additional observations from a re-analysis of the deposited data

How the results depend on the processing

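The counts of members inside, entering or leaving and the median distances were recomputed under 7 alternatives, and with the 70 core genes alone, which was chosen after seeing the data. Widening domains by 5 kb, joining domains up to 10 kb apart, the APPRIS principal start and adding chromosome X moved none of the 19 values by more than 1.5 times or, for distances, out of the interval over genes. Widening still changed which members entered, as Rpl24 was lost in both cell states and Rpl34 gained in 2CLCs. With domains trimmed by 5 kb, 5 instead of 8 members entered in 2CLCs and 6 instead of 7 in mESCs. In mESCs Rps20, Rps27a, Rpl15, Rpl37 and Rpl22l1, and in 2CLCs Rps20, Rps27rt, Rpl36-ps4 and Rpl9-ps6, entered with domains as deposited, widened and trimmed. With domains of at least 50 kb only, which removes narrow domains by construction, the median distance was 605 kb with DMSO and 471 kb with dTAG in mESCs, 730 and 420 kb in 2CLCs and 358 kb in the unnamed list, each longer than with all domains, and shorter after dTAG in both cell states as before. Rpl9-ps6 then no longer entered in mESCs, nor Rpl24 and Rps27rt in 2CLCs. Without the paralogs and Rpl36a-ps1, 0 members were inside in mESC DMSO and 0 in 2CLC DMSO, and 0 left in either cell state. With the core genes alone, 0 were inside in both DMSO lists, 5 in mESC dTAG, 5 in 2CLC dTAG and 2 in the unnamed list, and 5 entered in 2CLCs. No paired analysis was possible because each condition has a single list of domains without replicates. For the same reason no library could be left out.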
